A study of Mus musculus with 19 samples.

Results

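Havcr1, Lcn2, Spp1, Vcam1, Sox9, Sox4, Vim, Cd44, Clu and Krt8 are 10 genes used as markers of injured and dedifferentiated tubular cells in the kidney, and their rows were taken by gene name from a count table of 54532 genes. All 10 had counts in every kidney and passed the filter on low counts in every comparison. The RNA came from whole obstructed kidneys, so each value covers all cell types of the organ, and a change in the number of cells of a type cannot be told apart from a change in RNA per cell.

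In UUO (unilateral ureteral obstruction), urine is retained behind a closed ureter, and the tubules of that kidney are injured while the other kidney stays intact. The left ureter of male C57BL/6J mice aged 8 to 9 weeks was tied at 2 points and cut out between them. The mice were wild type (WT) or lacked CD5L (CD5L KO), a secreted protein of macrophages, and were injected intraperitoneally every day with PBS or with rCD5L, recombinant mouse CD5L, at 0.5 mg per mouse. The obstructed kidney was taken on day 12 after perfusion with heparin. Each group held 5 mice, except CD5L KO with PBS, which held 4, and every mouse had UUO by its label, so there is no unobstructed group and the data do not show how far the obstruction itself moved the markers. Total counts ranged from 17917491 to 23847090 per kidney. Cd5l had 0 counts in all CD5L KO kidneys, which allows up to 3 counts, and 3 to 15 counts in WT kidneys.

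When a proximal tubule cell is injured, it loses its brush border and transporters, takes on features of a less mature cell and either repairs or stays in an injured state. Cells in these states are known to raise surface proteins such as Havcr1 (KIM-1, a receptor for dying cells) and Vcam1 (an adhesion molecule for leukocytes), secreted proteins such as Lcn2 (NGAL, which binds iron carriers of bacteria), Spp1 (osteopontin) and Clu (clusterin, a chaperone outside cells), and the transcription factors Sox9 and Sox4. Cd44 is a receptor for hyaluronan, Vim encodes the intermediate filament of mesenchymal cells and Krt8 a keratin of simple epithelia. Several of them are not particular to tubular cells: fibroblasts, endothelium and leukocytes also make Vim, and leukocytes Cd44.

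CD5L KO rCD5L replicate 4 stood apart from the other 18 kidneys before any comparison was made. It had the lowest value of all 19 kidneys for each of the 10 markers. In CPM, counts scaled to the library size with TMM factors, Vcam1 was 99.4 in it, against a mean of 712 ± 102 (SD, n = 4) in the other kidneys of its group, which is 7.17-fold higher. Cd44 was 29.2 CPM against 140 ± 15.5, a difference of 4.77-fold. The smallest gap was that of Krt8, with 414 CPM against 672 ± 117, or 1.62-fold. The summed CPM of 14 proximal tubule markers, such as Slc34a1 and Lrp2, was 59718 in this kidney and at most 10478 in the other 18. The summed CPM of 8 macrophage markers was 765 in it and at least 1943 in the others, and that of 10 fibroblast and myofibroblast markers 1541 against at least 3093. The part of these cell types in its low marker values was not tested. The data hold no measure of the obstruction itself, so whether this kidney was obstructed like the others was not tested either, and its values and those of its group are to be read with that doubt. Results that rest on it are given with and without it. Replicate 3 of the same group also differed from replicates 1, 2 and 5, though less. Over genes, its counts gave a chi-square per degree of freedom of 78.7, 92.9 and 94.6 against those 3 kidneys. Among themselves, replicates 1, 2 and 5 gave 9.33 to 15.7. Replicate 3 had the highest Havcr1, Clu, Krt8 and Sox9 of its group, and is kept in the results given without replicate 4.

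**Figure D1:**
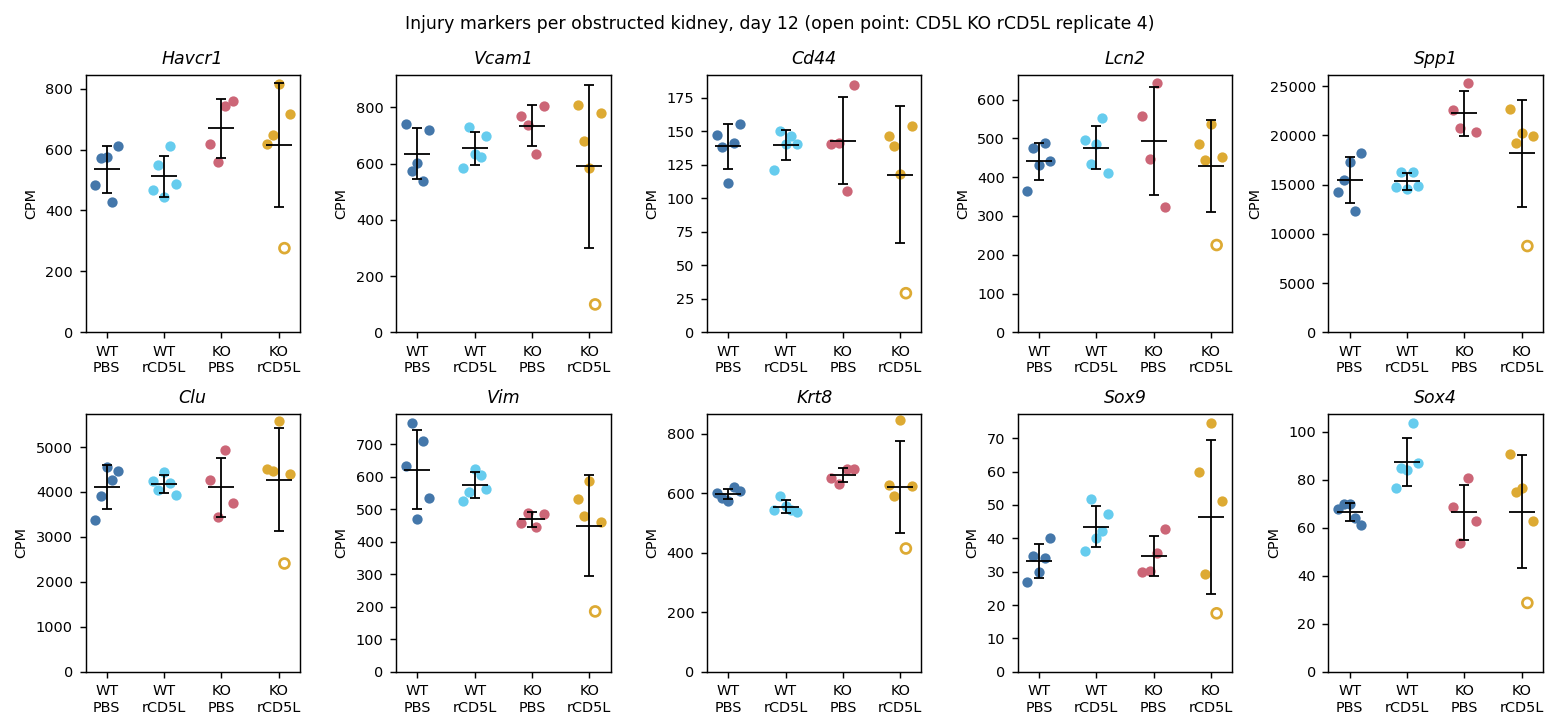
Each panel plots 1 marker in CPM (vertical axis, linear from 0) for the 4 groups. Each point is 1 kidney, and bars give the mean and SD of the group. The open point, CD5L KO rCD5L replicate 4, is the lowest in every panel, Spp1 and Krt8 of the 4 CD5L KO kidneys given PBS lie above those of the 5 WT kidneys given PBS, and Sox4 of the 5 WT kidneys given rCD5L lies above that of the 5 given PBS.

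The order of the levels was the same in every group when they were compared per gene length as FPKM. In WT kidneys given PBS, Spp1 led with 7696 ± 1131 FPKM (SD, n = 5), and Clu followed with 979 ± 113. Krt8 had 250 ± 8.34, Havcr1 189 ± 26.3, Lcn2 137 ± 14.7 and Vim 107 ± 20.8 FPKM. Vcam1, at 58.5 ± 8.43, lay above Cd44 at 16.8 ± 2.02, Sox4 at 11.4 ± 0.642 and Sox9 at 6.55 ± 0.981. The kidneys of neighbours in this order did not overlap in WT mice given PBS, except those of Havcr1 with Lcn2 and of Lcn2 with Vim. In CD5L KO mice given rCD5L, Spp1 and Clu each stood clear of the next gene and all lower neighbours overlapped. Without replicate 4, whose levels stood apart, the order was the same and 3 pairs of neighbours overlapped: Krt8 with Havcr1, Cd44 with Sox4, and Sox4 with Sox9. Spp1 took between 1.28% and 1.87% of all counts in WT kidneys given PBS and between 2.05% and 2.45% in CD5L KO kidneys given PBS.

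Upstream sequence is shown for Spp1, the marker with the clearest difference between the genotypes, and Sox4, with the smallest p-value for rCD5L in WT mice. It is also shown for Cd44, a member of the pair that moved together most closely over all 19 kidneys. Without CD5L KO rCD5L replicate 4, the closest pair was Sox9 with Krt8. The sequences are from RefSeq on GRCm38.p6 and run 5′ to 3′ on the strand of the gene. They end at the base before the most upstream RefSeq start or, for Sox4, before the first annotated exon. They lie at chr5:104434861-104435110 (Spp1, plus strand), chr13:28953714-28953949 (Sox4, minus strand) and chr2:102901666-102901915 (Cd44, minus strand). The gene coordinates that came with the counts put the start of Spp1 further downstream, at 104435118. Capitals mark matches, on either strand, to the CCAAT box (CCAAT), the TATA box (TATAAA) or the binding motif of TEAD factors (GGAATG).
Spp1: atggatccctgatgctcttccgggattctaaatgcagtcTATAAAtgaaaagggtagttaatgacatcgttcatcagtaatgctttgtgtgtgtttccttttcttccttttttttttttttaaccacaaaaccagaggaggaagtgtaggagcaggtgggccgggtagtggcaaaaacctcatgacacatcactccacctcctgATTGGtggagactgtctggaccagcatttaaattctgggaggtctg
Sox4: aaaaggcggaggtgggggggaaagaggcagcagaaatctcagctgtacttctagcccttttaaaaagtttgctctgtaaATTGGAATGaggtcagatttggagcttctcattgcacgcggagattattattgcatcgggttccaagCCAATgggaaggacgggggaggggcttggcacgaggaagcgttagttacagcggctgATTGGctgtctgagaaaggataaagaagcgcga
Cd44: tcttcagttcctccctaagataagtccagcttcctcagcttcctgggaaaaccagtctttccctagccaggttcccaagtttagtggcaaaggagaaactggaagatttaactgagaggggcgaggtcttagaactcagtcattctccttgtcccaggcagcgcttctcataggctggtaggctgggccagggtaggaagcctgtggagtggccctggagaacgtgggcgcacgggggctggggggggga
In Sox4 the TEAD match shares bases with a CCAAT match read on the other strand. Of the 10 markers, 7 were in the promoter table. In the 250 bases before the most upstream RefSeq start, CCAAT was found in 3 of these 7 (Spp1, Sox4 and Vim) and in 34.5% of 27025 promoters, TATAAA in 2 (Spp1 and Vim) and in 13% of promoters, and GGAATG in 1 (Sox4) and in 12.6%. The letters TGANTCA of AP-1 were in none of the 7 windows and in 6.85% of promoters. Cd44 held none of the motifs searched. In 5 of the 7 windows the GENCODE annotation places an exon within these bases, and in Vim and Lcn2 from the first base on, so the matches of Vim do not lie upstream of every annotated exon. These are matches of letters, and binding was not measured.

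The first comparison asked whether the markers differed between CD5L KO and WT kidneys when both were given PBS. Of the 10 markers, 2 passed an adjusted p-value of 0.05 in edgeR's quasi-likelihood test, where 10.5% of 17579 genes did. Spp1 was higher, as were 5.13% of genes, and Vim lower, as were 5.4%, in CD5L KO kidneys. Without adjustment, 4 markers and 26.6% of genes had a p-value under 0.05. The groups did not overlap for 2 markers, Spp1 and Krt8, where 14.1% of genes did not overlap. The median log2 fold change of the 10 markers was 0.10, beside -0.0046 for all genes tested.

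Spp1 (ENSMUSG00000029304, chr5:104435118-104441050, plus strand) encodes osteopontin, a phosphoprotein of the matrix and urine that binds integrins. In WT kidneys given PBS it had 14288, 15441, 17284, 12340 and 18157 CPM, and in CD5L KO kidneys 22526, 20695, 25338 and 20310 CPM. Every CD5L KO kidney lay above every WT kidney. The means were 22217 ± 2294 (SD, n = 4) and 15502 ± 2329 (SD, n = 5), 0.51 apart on the log2 scale (standard error, SE, 0.111, adjusted p = 0.0143). The call held when any of the 9 kidneys was left out (adjusted p from 0.0119 to 0.0413), and was lost when all 19 kidneys shared the estimate of the spread (log2 fold change 0.52, adjusted p = 0.272), a fit that called 0.065% of genes. Gm42793, a short predicted gene inside Spp1 on its strand, had at most 324 counts in any kidney, against 119565 or more for Spp1.

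The other secreted markers did not pass. Lcn2 (chr2:32384633-32388252) had 365, 476, 432, 488 and 442 CPM in WT kidneys and 557, 447, 644 and 324 in CD5L KO kidneys. CD5L KO kidneys thus held both the highest and the lowest value (log2 fold change 0.16, SE 0.159, adjusted p = 0.579). With each kidney left out in turn, the log2 fold change was 0.0068 to 0.32 and never passed. Clu (chr14:65968483-65981547) was at 4111 ± 482 CPM (SD, n = 5) in WT and 4104 ± 657 (SD, n = 4) in CD5L KO kidneys, with a log2 fold change of -0.0077 (SE 0.112, adjusted p = 0.975).

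Among the surface markers, Havcr1 (chr11:46735080-46779578) had 485, 573, 577, 426 and 612 CPM in WT kidneys and 618, 559, 744 and 759 CPM in CD5L KO kidneys. The groups overlapped, although 3 of the 4 CD5L KO values exceeded the highest WT value, and the log2 fold change of 0.32 (SE 0.115) did not pass (adjusted p = 0.0962). DESeq2 called it, with an adjusted p-value of 0.0386. Vcam1 (chr3:116109949-116129688) was at 735 ± 73.6 CPM in CD5L KO and 634 ± 90.4 CPM in WT kidneys (log2 fold change 0.21, SE 0.104, adjusted p = 0.229). Cd44 (chr2:102811141-102901665) was at 143 ± 32.5 and 139 ± 16.6 CPM (log2 fold change 0.035, adjusted p = 0.902).

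Vim (ENSMUSG00000026728, chr2:13573927-13582826, plus strand) was the only marker called lower in CD5L KO kidneys by edgeR. It had 631, 764, 470, 709 and 534 CPM in WT kidneys and 456, 489, 444 and 484 CPM in CD5L KO kidneys. The WT kidneys were spread widely and their lowest value lay within the CD5L KO range. The means were 622 ± 121 (SD, n = 5) and 468 ± 21.8 (SD, n = 4), a log2 fold change of -0.42 (SE 0.122, adjusted p = 0.0488). This call was lost without any 1 of 7 of the 9 kidneys (adjusted p from 0.0745 to 0.116, the exceptions being WT PBS replicates 3 and 5), with all 19 kidneys in the fit (adjusted p = 0.500) and with a correction for gene length (adjusted p = 0.0714, with 7.42% of genes called). The log2 fold change was -0.33 to -0.44 where leaving out a kidney lost the call, -0.41 with all 19 kidneys and -0.39 with the length correction. The fibroblast and myofibroblast markers moved with it: 6 of 10 passed the test, all of them downward in CD5L KO (median -0.46 on the log2 scale), and none was at 0 in any kidney. Their summed level was 3207 to 4436 CPM in CD5L KO kidneys and 4548 to 6892 CPM in WT kidneys. Of 8 endothelial markers, 4 passed downward and 0 lay above 0, with sums of 560 to 628 against 675 to 770 CPM. Of 8 macrophage markers, 1 passed downward and 2 lay above 0, with sums of 1943 to 3172 against 2161 to 2834 CPM. Their part in the difference of Vim was not tested.

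Krt8 (chr15:101996698-102004482) varied least from kidney to kidney. It had 599, 583, 575, 619 and 608 CPM in WT kidneys and 651, 632, 681 and 682 CPM in CD5L KO kidneys, which did not overlap. The log2 fold change of 0.14 (SE 0.0521) did not pass in edgeR (adjusted p = 0.104) and passed in DESeq2 (adjusted p = 0.0154). With the correction for gene length in edgeR it was 0.069 (adjusted p = 0.486). The 6 markers of urothelium, the lining of the renal pelvis and ureter, lay on the same side as Spp1 and Krt8: all 6 were above 0, with a median log2 fold change of 0.77, and 0 passed. Their summed level was 186 to 315 CPM in CD5L KO and 25.3 to 182 CPM in WT kidneys, and none was at 0 in any kidney. The part of urothelium in these differences was not tested. DESeq2 called 4 markers in all (Havcr1, Spp1, Vim and Krt8), where it called 18.1% of genes. The transcription factors did not pass. Sox9 (chr11:112782224-112787760) was at 34.6 ± 6.06 CPM in CD5L KO and 33.1 ± 5.07 CPM in WT kidneys (adjusted p = 0.82), and Sox4 (chr13:28948919-28953713) at 66.3 ± 11.4 and 66.6 ± 3.80 CPM (adjusted p = 0.952).

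**Figure D2:**
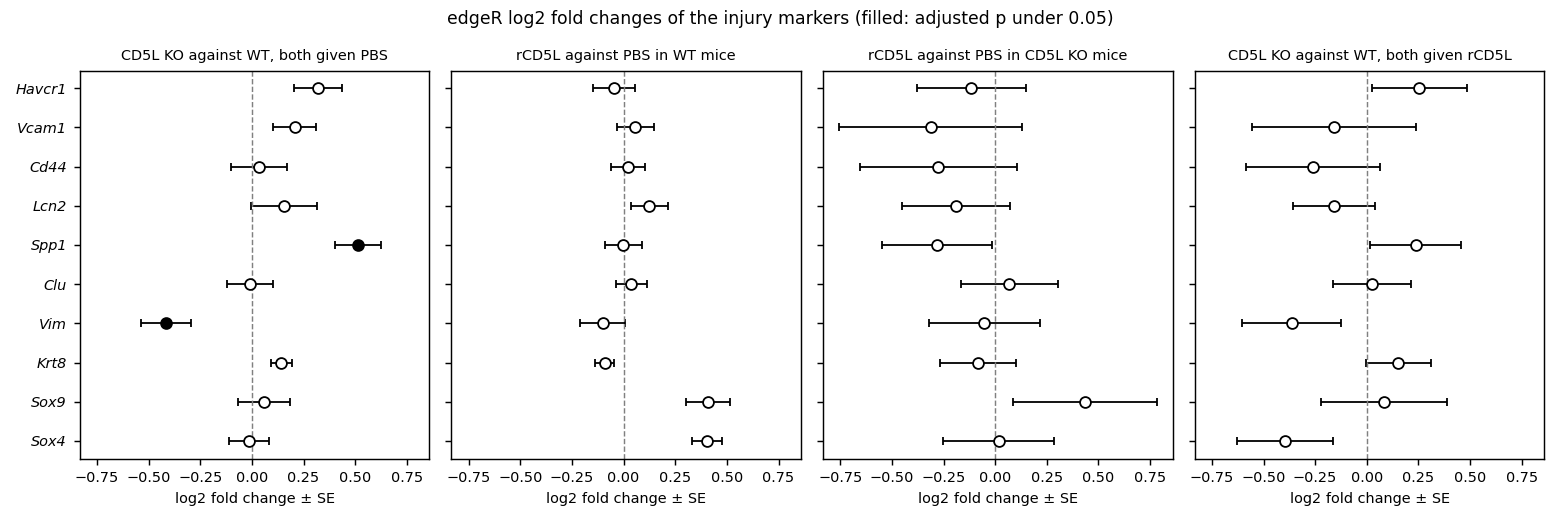
The log2 fold change of each marker (horizontal axis, points, with bars of 1 standard error, SE, from edgeR) is drawn for the 4 pairwise comparisons, 1 panel each. Filled points passed an adjusted p-value of 0.05: Spp1 at 0.51 and Vim at -0.42, both for CD5L KO against WT given PBS. SEs are 0.0455 to 0.109 for rCD5L in WT mice and 0.184 to 0.444 for rCD5L in CD5L KO mice.

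In WT mice, the question was whether rCD5L moved the markers. By edgeR, 0 of 10 markers and 0% of 17455 genes passed. Without adjustment, 2 markers, Sox4 and Sox9, had a p-value under 0.05, where 16% of genes did. DESeq2 called both of them, where it called 4.15% of genes.

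Sox4, a factor of progenitor cells, had 67.6, 70.0, 70.0, 64.2 and 61.3 CPM in WT kidneys given PBS and 76.7, 85.0, 84.1, 104 and 86.8 CPM in WT kidneys given rCD5L. It was the only marker whose groups did not overlap (3.58% of genes did not), with all 5 kidneys given rCD5L above the 5 given PBS. It differed by 0.40 on the log2 scale (SE 0.0713), which passed neither in edgeR as run here (adjusted p = 0.0952) nor when any kidney was left out, and passed in edgeR without the low-count filter (0.0157, with 0.43% of genes called) and in DESeq2 (5.22e-04). Sox9, a factor of the developing nephron that repairing tubules turn on again, had 26.9, 34.6, 29.8, 34.1 and 40.2 CPM with PBS and 36.2, 51.8, 40.2, 42.1 and 47.4 CPM with rCD5L. Here 3 of 5 kidneys given rCD5L lay above all those given PBS (log2 fold change 0.41, SE 0.108), with an adjusted p of 0.119 in edgeR and 0.0215 in DESeq2. Both values rest on modest counts, as Sox9 had between 239 and 1579 counts and Sox4 between 391 and 2174 counts over the 19 kidneys.

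The other 8 markers lay between -0.10 (Vim) and 0.13 (Lcn2) on the log2 scale. Spp1 was at 15334 ± 846 CPM (SD, n = 5) with rCD5L, against 15502 ± 2329 with PBS, a log2 fold change of -0.0013 (SE 0.0896). Havcr1 was at 512 ± 68.0 CPM, against 535 ± 76.6. Krt8 was lower in 4 of 5 kidneys given rCD5L than in any given PBS, at 555 ± 21.8 against 597 ± 18.1 CPM (log2 fold change -0.091, SE 0.0455, adjusted p = 0.352). Proximal tubule markers also lay lower, with 14 of 14 below 0, a median log2 fold change of -0.47 and 0 called. Of 6 urothelium markers, 0 lay above 0, with a median of -0.22 and 0 called. Of 9 lymphocyte markers, 8 lay above 0, with a median of 0.32 and 0 called. The 6 tested epididymis markers lay above 0, as Sox4 and Sox9 did, with a median of 0.70 and 0 called, and the list summed to 17.9 to 43.9 CPM with rCD5L and 13.4 to 27.5 CPM with PBS. The part of these cell types in the marker values was not tested.

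In CD5L KO mice, no marker differed beyond the spread between kidneys with rCD5L against PBS. By edgeR, 0 of 10 markers and 0% of 17467 genes passed, and 0 markers had an unadjusted p-value under 0.05, where 2.87% of genes did. The groups overlapped for all 10 markers, and did not for 2.34% of genes. DESeq2 called 0 markers and 10 genes (0.0582%). The lowest adjusted p-value of a marker was 0.897, and SEs ranged from 0.184 (Krt8) to 0.444 (Vcam1).

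Spp1 had 22719, 19199, 20263, 8761 and 19884 CPM in the 5 CD5L KO kidneys given rCD5L. Of the 4 besides the lowest, 3 lay below all kidneys given PBS and 1 within their range. Without replicate 4, its log2 fold change went from -0.28 to -0.11 (adjusted p = 0.814). For Havcr1, with 619, 647, 816, 276 and 717 CPM, it went from -0.12 to 0.073, and for Vim, with 532, 479, 588, 185 and 460 CPM, from -0.052 to 0.15, neither of which passed. Sox9 had 60.0, 29.2, 74.5, 17.5 and 51.1 CPM against 29.9, 30.2, 35.7 and 42.8 CPM with PBS. Its log2 fold change was 0.43 (SE 0.349) with all kidneys and 0.65 without replicate 4 (adjusted p = 0.763), where it was the 1 marker with an unadjusted p-value under 0.05, as were 5.54% of genes. The epididymis markers, of tissue outside the kidney, lay on the same side as Sox9: all 6 that were tested were above 0 without replicate 4 (median log2 fold change 1.41), and 0 passed. The list summed to 27.2 to 65.7 CPM with rCD5L and 8.77 to 24.04 CPM with PBS, with replicate 3 the highest for both the list and Sox9, and Lcn9 and Cst11 were at 0 in every kidney. Over 18 kidneys, r of Sox9 with the list was 0.59, which did not pass (permutation adjusted p = 0.482). Their part in the values of Sox9 was not tested. Without replicate 4, 0 of 6 urothelium markers lay above 0 (median log2 fold change -0.42, 0 passed), while Krt8 was at 0.034. The median over the 10 markers was -0.099 with all 9 kidneys, 0.053 without replicate 4 and -0.23 without replicate 3.

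Between CD5L KO and WT kidneys that were both given rCD5L, 0 of 10 markers and 0% of 17360 genes passed in edgeR, and 0 markers had an unadjusted p-value under 0.05, where 17.8% of genes did. DESeq2 called 0 markers and 1.07% of genes. The groups overlapped for all 10 markers, and did not for 7.38% of genes. This comparison and the ones above share their samples. Spp1 was above all 5 WT kidneys (14540 to 16270 CPM) in 4 of 5 CD5L KO kidneys, and Havcr1 also in 4 of 5. Without replicate 4, the log2 fold change of Spp1 was 0.41 (adjusted p = 0.0966) and that of Havcr1 0.44 (adjusted p = 0.165), with 0% of genes called. With all kidneys they were 0.24 (SE 0.221) and 0.25 (SE 0.231). Without replicate 4, 3 markers (Havcr1, Spp1 and Krt8, the last at a log2 fold change of 0.26) had an unadjusted p-value under 0.05, where 16.2% of genes did. In the same fit, 6 of 6 urothelium markers (median log2 fold change 0.54) and 12 of 14 proximal tubule markers (0.36) were above 0, as were 0 of 8 endothelial (-0.21) and 1 of 10 fibroblast and myofibroblast markers (-0.24), and 0 of them passed. Their part in the marker values was not tested. The fit of all 19 kidneys called 0 markers and 7% of genes. Sox4 was below the lowest of the 5 WT values in 4 of 5 CD5L KO kidneys and had a log2 fold change of -0.40 (SE 0.234, adjusted p = 0.373), or -0.21 without replicate 4.

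Whether the effect of rCD5L differed between the genotypes was tested by the interaction in all 19 kidneys. By edgeR, 0 of 10 markers and 0% of 18454 genes passed, and 0 markers had an unadjusted p-value under 0.05, where 6.25% of genes did. DESeq2 called 0 genes. The log2 difference between the effects was -0.37 for Sox4 (SE 0.280) and -0.35 for Vcam1 (SE 0.458), and without CD5L KO rCD5L replicate 4 it was -0.19 and -0.092. Without that kidney, too, 0 markers and 0% of genes passed, and 0 markers had an unadjusted p-value under 0.05, where 4.97% of genes did. Intervals of this width do not show that rCD5L acted alike in both genotypes.

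How the markers moved together from kidney to kidney was measured by Pearson's r of log2 CPM after the mean of each group was removed. Over 19 kidneys, all 45 pairs of markers had a positive r, with a median of 0.77 and a range from 0.52 (Lcn2 and Cd44) to 0.97 (Vcam1 and Cd44). By permutation of the kidneys within groups, 6 pairs passed an adjusted p-value of 0.05 over 45 pairs. Without CD5L KO rCD5L replicate 4, the median was 0.14, 29 of 45 pairs were positive, and the range was -0.67 to 0.70. The shared movement of the 10 markers therefore rested on that kidney. By Spearman's rho, which gives a far kidney less weight, the medians were 0.44 and 0.15, with 3 and 0 pairs called.

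Among the other 18 kidneys, 2 of 45 pairs passed by r and 0 by rho. Vcam1 and Cd44 rose together (r = 0.69 and rho = 0.78, permutation adjusted p = 0.0484 and 0.0742). Lcn2 and Clu had r = 0.69 and rho = 0.72 (permutation adjusted p = 0.18 and 0.0943), Sox9 and Krt8 r = 0.70 and rho = 0.51 (0.357 and 0.26), and Havcr1 and Spp1 r = 0.59 and rho = 0.55 (0.203 and 0.26). Lcn2 and Vcam1 moved in opposite directions, with r = -0.63 and rho = -0.64 (permutation adjusted p = 0.0484 and 0.0745), where r over 19 kidneys was 0.60. Lcn2 with Cd44 (-0.67), Clu with Cd44 (-0.63) and Clu with Vcam1 (-0.59) had r of the same sign and did not pass. The only pairs called among these 18 kidneys were Vcam1 with Cd44 and Lcn2 with Vcam1, and neither was called by rho or with the gene length trend removed. Both lay at the edge of the threshold, since in 10 other random draws of the permutations, made after the calls were seen, they passed in 9 (adjusted p from 0.0443 to 0.0517).

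The values of the 4 CD5L KO kidneys given PBS show where these relations held and where they did not. Replicate 3 had the highest Lcn2 (644 CPM) and Clu (4945 CPM) and the lowest Cd44 (105 CPM) and Vcam1 (633 CPM) of the 4. Replicate 4 had the lowest Lcn2 (324 CPM) and the highest Cd44 (185 CPM) and Vcam1 (804 CPM), with Clu at 3749 CPM. Replicates 1 and 2 went the other way, with both Lcn2 (557 and 447 CPM) and Vcam1 (768 and 736 CPM) higher in replicate 1, and the lowest Clu (3446 CPM) was in replicate 2. Without the 2 of 19 kidneys farthest from the median of Lcn2, r was -0.67 for Lcn2 with Vcam1, -0.45 for Lcn2 with Cd44 and 0.78 for Lcn2 with Clu.

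**Figure D3:**
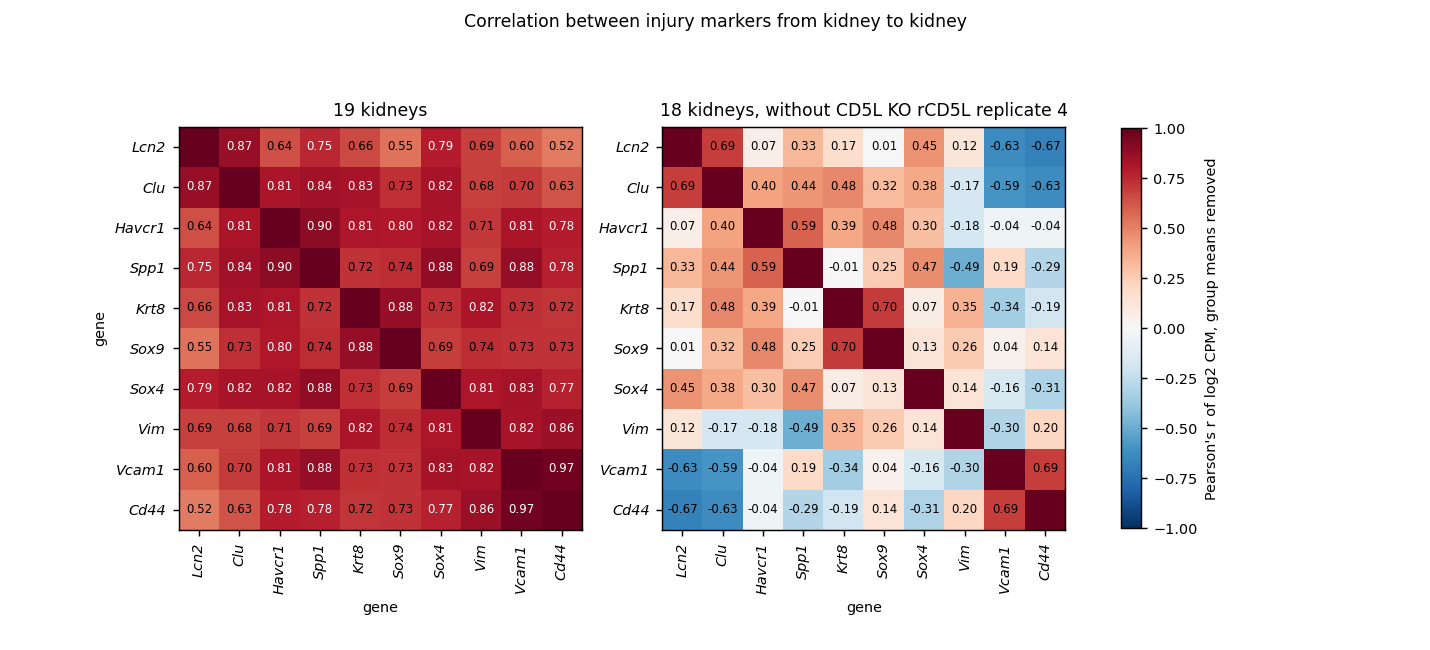
Pearson's r between the 10 markers (rows and columns, colour from -1 to 1, group means removed) is given for all 19 kidneys on the left and for the 18 without CD5L KO rCD5L replicate 4 on the right. All values on the left are positive (0.52 to 0.97), and on the right the values of Lcn2 and Clu with Vcam1 and Cd44 are negative (-0.67 to -0.59).

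The markers were also set against the mean log2 CPM of 12 lists of cell type markers, which gives 120 relations. Vim followed the fibroblast and myofibroblast markers with r = 0.95 and rho = 0.87 over 19 kidneys (permutation adjusted p = 0.0012 and 0.0024) and with r = 0.85 and rho = 0.89 over 18 kidneys (0.0108 and 0.0204). It was the only relation called over 19 kidneys. Over 18 kidneys, Clu also passed with the 6 collecting duct markers, such as Aqp2 and Scnn1b (r = 0.76 and rho = 0.78, permutation adjusted p = 0.0108 and 0.0216), where r was 0.30 over 19 kidneys. Cd44 had an r of -0.70 with the collecting duct markers, which did not pass (permutation adjusted p = 0.0756). Krt8 had an r of 0.68 with the 12 epididymis markers, which summed to 8.77 to 65.7 CPM and mark tissue outside the kidney, and did not pass either (permutation adjusted p = 0.0756). With proximal tubule markers, the median r of the 10 markers was -0.71 over 19 kidneys and 0.19 over 18, with 0 called in either.

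**Figure D4:**
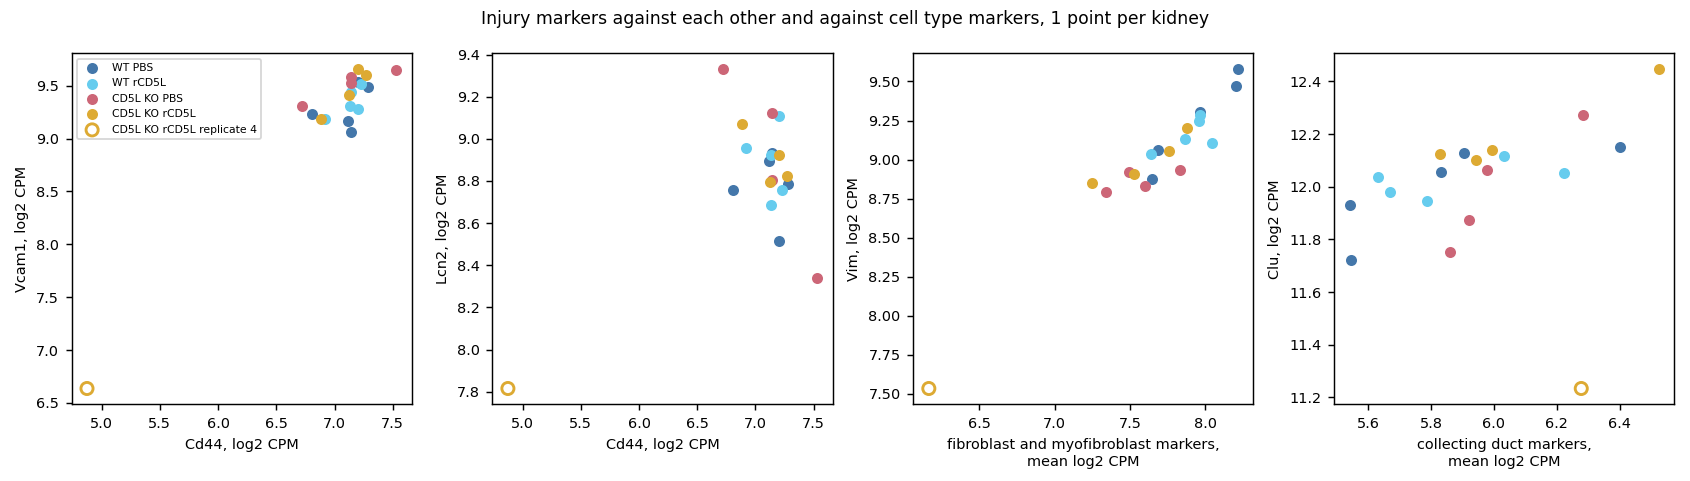
Each point is 1 kidney, coloured by group, with log2 CPM of the marker on the vertical axis and log2 CPM of Cd44 (the left pair of panels) or the mean log2 CPM of a cell type list (the right pair) on the horizontal axis. CD5L KO rCD5L replicate 4 (open point) lies far from the others in every panel. Among the rest Vcam1 rises with Cd44 (r = 0.69 with group means removed), Lcn2 with Cd44 has an r of -0.67 that did not pass (adjusted p = 0.203), Vim rises with the fibroblast and myofibroblast markers (r = 0.85) and Clu with the collecting duct markers (r = 0.76).

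Genes whose log2 CPM averaged 5 or more, 7033 in all, were ranked by r with the mean z-score of the 10 markers over 19 kidneys. Tubb2b (0.98), Elf3 (0.97), Cd14 (0.97), Cldn7 (0.96) and Tgif1 (0.96) were most like the markers, and Sdha (-0.97), Nampt (-0.97), Slc33a1 (-0.96), Fhl1 (-0.96) and Pcca (-0.96) least. This order too rested on CD5L KO rCD5L replicate 4, whose mean z-score was -3.14 against -0.30 to 0.98 in the others: without it, r was 0.44 to 0.77 for the first 5 genes and -0.64 to -0.54 for the last 5. Over these 18 kidneys other genes led: Taok3 (0.89), Hsp90ab1 (0.83), Ran (0.82), Fam53c (0.81) and Vps26b (0.79) were most like the markers, and Metap1d (-0.84), Neat1 (-0.81), Ilkap (-0.79), Klhdc8b (-0.77) and Plekhn1 (-0.76) least. Over 19 kidneys, r was -0.096 for Ran and 0.84 for Taok3.

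A list of 40 other genes of tubular injury and repair was also examined. For CD5L KO against WT with PBS, 1 was higher and 3 were lower by edgeR, where 10.5% of all genes passed, with 26 of 40 above 0 and a median log2 fold change of 0.038. Ccl2, a chemokine for monocytes, was at 47.8 against 29.8 CPM (log2 fold change 0.67, SE 0.108, adjusted p = 0.00566). Ctgf, a matricellular protein, fell by 0.68 on the log2 scale (SE 0.136, adjusted p = 0.0104), and Akap12, a scaffold for kinase A, by 0.64 (SE 0.117, adjusted p = 0.00799). In the other comparisons and the interaction, 0 of the 40 passed in edgeR. Their summed CPM was 4298 in CD5L KO rCD5L replicate 4 and 8220 to 9928 in the other 18 kidneys.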

How the data were processed

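RNA-seq of 19 obstructed mouse kidneys was analysed in 4 groups taken from the sample labels. Per the labels and the methods of the study, libraries were made from total RNA (RIN of at least 7) with random hexamers. The authors used Trimmomatic for trimming, HISAT2 on GRCm38 for alignment and featureCounts for counting, and deposited raw counts per gene together with FPKM values scaled by gene length and library. Tool versions, the strand setting and the treatment of reads matching several places are not given in the sources used here, so counts of overlapping genes are uncertain. Columns without a sample numbered 0.

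Tests were run with the quasi-likelihood functions of edgeR 4.0.16 under R 4.3.3, after TMM scaling and filterByExpr (min.count 10), with only the compared groups in a fit and all 19 kidneys for the interaction. Benjamini-Hochberg adjustment covered all genes tested, and an adjusted p-value under 0.05 was called. CPM and log2 CPM (prior count 2) used TMM factors over 19 kidneys. Correlations used 100000 permutations of kidneys within groups, two-sided, adjusted over 45 pairs of markers or 120 relations with marker lists. Replicates are labelled as biological, and no pair of kidneys was within sampling noise. Other settings tried were RLE factors, no filter, DESeq2 1.42.0, all 19 kidneys in 1 fit, a replicate block, each kidney left out and, chosen after seeing the data, a gene length offset (lowess span 0.3). The tests were checked on simulated data. The limit of 3 counts for Cd5l covers counting error only.

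The text names all 10 markers, the 3 called genes with the largest rise and fall in each comparison among other injury genes and the study's marker lists, and the 5 genes most and least like the markers (over 19 and over 18 kidneys), except 1 gene that is not reported here. The markers and lists were chosen with earlier results of these data known, and so were the sequences shown and motifs searched. Ccn1 and Ccn2 were matched by the older symbols Cyr61 and Ctgf.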

Additional observations from a re-analysis of the deposited data

Results flagged for a closer look

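In CD5L KO mice given rCD5L, the lowest of the 5 kidneys lay far from the others for Spp1, at 8761 CPM, and for Cd44, at 29.2 CPM. Its gap to the next kidney was 0.748 of the range of the group for Spp1 and 0.712 for Cd44. Both values belong to replicate 4. Of 40 sets of a marker and a group, these 2 were far enough to be flagged. Chance alone gives about 1 in 20 of independent sets. The sets here share kidneys, so that rate cannot be applied to them. In the same kidney the proximal tubule markers summed to 59718 CPM and the macrophage markers to 765 CPM. The part of these cell types in the low values was not tested.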

How the results depend on the processing

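Between CD5L KO and WT given PBS, 4 markers passed with DESeq2, 1 with the gene length offset (Spp1), 0 with all 19 kidneys in 1 fit (which called 18.1%, 7.42% and 0.065% of genes), and 1 to 2 when each kidney was left out (5.81% to 11.8% of genes). For rCD5L in WT mice, 2 passed with DESeq2 and 1 without the filter (4.15% and 0.43% of genes). Deviations of same-numbered kidneys had an r over 0.1 in 5 of 27 pairs (range -0.18 to 0.18). Kidneys of different numbers were not compared in this way, so these values do not settle whether replicate numbers pair the kidneys. With the replicate block, 2 markers and 12.1% of genes passed between CD5L KO and WT given PBS and no call changed in the other comparisons.

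The median correlation of the markers was 0.63 without removing group means, with 25 pairs called. When each kidney was left out it was 0.14 to 0.81, with 2 to 14 pairs called: 14 without CD5L KO PBS replicate 4, 3 without WT PBS replicate 1 and 2 without CD5L KO rCD5L replicate 4.

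Small log2 fold changes turned sign, none of them called. With the block, Clu was 0.019 and -0.017 for CD5L KO against WT (PBS and rCD5L), Sox4 -0.052 for rCD5L in CD5L KO, Spp1 0.010 for rCD5L in WT, and Sox9 -0.062 for CD5L KO against WT given rCD5L and -0.048 for the interaction. With the length offset, Sox4 was 0.015 for CD5L KO against WT given PBS, and Spp1 was 0.052 and Cd44 -0.015 for rCD5L in WT. Leaving out each kidney gave, for CD5L KO against WT given PBS, Sox9 -0.053 to 0.14, Sox4 -0.11 to 0.079, Cd44 -0.10 to 0.16 and Clu -0.11 to 0.067. For rCD5L in CD5L KO it gave Havcr1 -0.24 to 0.073, Sox4 -0.12 to 0.21, Vim -0.17 to 0.15, Clu -0.045 to 0.22 and Krt8 -0.22 to 0.034. For rCD5L in WT it gave Havcr1 -0.12 to 0.0053, Spp1 -0.072 to 0.061, Cd44 -0.045 to 0.072 and Clu -0.028 to 0.077. For CD5L KO against WT given rCD5L it gave Vcam1 -0.30 to 0.11, Sox9 -0.14 to 0.29 and Clu -0.083 to 0.17. For the interaction it gave Havcr1 -0.17 to 0.12, Sox9 -0.19 to 0.23, Vim -0.049 to 0.25, Clu -0.067 to 0.18 and Krt8 -0.11 to 0.12.

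Spp1 had at least 119565 counts in a kidney, and the lowest count of any marker was 239 (Sox9).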

Other observations

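Marker lists for states of the proximal tubule were taken from the supplement of the study under the names PT, PT_inj, PT_AI, PT_FR and PT_R. Havcr1 is in 4 of them and Vcam1 in 1. Without these genes, for CD5L KO against WT with PBS, 1 of 49 PT genes was higher by edgeR (Nox4, a NADPH oxidase, log2 fold change 0.36, adjusted p = 0.0234) and 1 of 24 PT_inj genes (Slc13a1, a sulfate transporter, 0.44, adjusted p = 0.0252). Of 51 PT_AI genes, 5 were called higher and 1 was called lower, where 5.13% and 5.4% of all genes were. Those that rose most were Hspb1 (0.35, adjusted p = 0.0482) and Hspe1 (0.32, adjusted p = 0.00866), which are chaperones, and Hsp90aa1 (0.29, adjusted p = 0.0273), and Ppp1r15a, which restarts translation after stress, fell by 0.46 (adjusted p = 0.00798). Of 36 PT_FR genes, 0 passed, and 25 lay above 0. Of 53 PT_R genes, Slc13a1 was higher, and Ank3 (-0.38, adjusted p = 0.00703), Ncapd2 (-0.37, adjusted p = 0.0313) and Tead1 (-0.28, adjusted p = 0.0072) were lower. For rCD5L in either genotype, CD5L KO against WT given rCD5L, and the interaction, 0 genes of these lists passed in edgeR.

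For rCD5L in CD5L KO mice, the PT list had a median log2 fold change of 0.91 with 48 of 49 genes above 0, or -0.034 with 23 of 49 above 0 without CD5L KO rCD5L replicate 4. The summed level of the list was 48198 CPM in CD5L KO rCD5L replicate 4 and 4288 to 8849 CPM in the other 18 kidneys.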
